A study of Oryza sativa with 12 samples.

Results

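The genes described here are the rice cyclins of types A, B and D, the cyclin-dependent kinases (CDKs) of types A and B, and genes of DNA replication. They were chosen by name, as genes whose symbol or synonym in the gene annotation began with CYCA, CYCB, CYCD, CDKA, CDKB, ORC, MCM, RPA, RFC, CDC6, CDT1, POLA, POLD or RNR, or was PCNA. Of 52 genes that matched, 42 had a probe on the array, among 15798 named genes and 19454 features (genes, or probes without a gene) in all. The 42 were 9 D-type, 3 A-type and 4 B-type cyclins, 3 CDKs, 9 ORC and MCM genes and 14 others. Those 14, named PCNA, RFC, RPA or POLD, were grouped by name alone as replication fork proteins. Where each protein acts in the cell was not tested. CYCA3-1, CYCB1-5, CYCD6-1, CDKB1-1, MCM2, MCM4, ORC2, ORC3, ORC6 and POLD1 matched by name but had no probe in the table used. No gene matched the letters CDC6, CDT1, POLA or RNR. The flowering gene FCA matched only through the letters of a synonym and was left out.

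Rice cells growing in suspension were deprived of sucrose in Murashige and Skoog medium for 12, 24 or 48 h, and control cells had 3% sucrose in that medium for the same time. A further 12 h comparison used control cells in 88 mM sorbitol, which the design text names as a control for osmotic stress. No sucrose content was recorded here for that sorbitol control. Each sample was 1 Agilent 2-colour array on which polyadenylated RNA of starved cells was labelled with Cy5 and that of control cells with Cy3, so a log2 ratio below 0 stands for less RNA in the starved cells. There were 3 arrays in each of the 4 groups, named 12 h, 24 h, 48 h and 12 h sorbitol control. The labels name no cultivar, no genotype and no transgene. They do not say whether replicates came from separate cultures, so p-values measure the spread between these arrays, which may be technical.

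Cyclins are the regulatory subunits that activate CDKs, and the pair drives a cell from one phase of the division cycle to the next. In plants D-type cyclins act mainly at the entry into the cycle, A-type cyclins in S phase and G2, and B-type cyclins, with the plant-specific B-type CDKs, around mitosis. Before S phase the origin recognition complex (ORC) and the MCM helicase are loaded on origins, and at the fork the clamp loader RFC puts the sliding clamp PCNA on DNA for polymerase delta while replication protein A (RPA) covers single-stranded DNA. Sugars are known to control D-type cyclins and cell division in plant cells.

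In cells without sucrose, the RNA of part of these genes was lower than in cells with sucrose, and none was higher at any of the 3 times. A gene was called when its adjusted p in limma, Benjamini-Hochberg over all features tested, was under 0.05. At 12 h, 8 of 42 genes were lower, where 4.04% of all features tested were lower. At 24 h, 9 of 42 were lower, beside 3.87% of all features. At 48 h, 18 of 38 were lower, beside 13.0% of all features. The median log2 ratio of these genes was -0.53 at 12 h, -0.59 at 24 h and -0.79 at 48 h, with medians of all features of 0.00, 0.00 and 0.01. Of all features, 5.04%, 4.73% and 12.4% were higher at these times. All 3 arrays were below 0 for 15 of 42 genes at 12 h (18.3% of all features), 23 of 42 at 24 h (20.4%) and 25 of 38 at 48 h (26.4%). All 3 were above 0 for 3 genes at 12 h (21.9% of all features), 2 at 24 h (21.6%) and 2 at 48 h (27.5%). CYCD5-1, CDKA-2, MCM8 and RPA70A had no test at 48 h because their value was blank on 48 h replicate 2.

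CYCB2-2, CDKB2-1, CYCD3-2, PCNA, RPA70B and RPA70C, 6 genes, were lower at all 3 times. Every one of the 8 genes called at 12 h and the 9 called at 24 h was also called at 48 h, where 7 more were called that had been called at neither earlier time. The other 24 genes were not called at any time. The shares of all features with such overlaps between times were not counted, so these overlaps are not shown to be particular to these genes. In these bulk samples fewer dividing cells in the culture and less RNA of these genes in each cell cannot be told apart.

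The arrays of a group differed. The median over these genes was -1.11, -0.61 and 0.01 on 12 h replicates 1 to 3, -0.57, -1.05 and -0.11 on the 24 h arrays, and -0.60, -1.68 and -0.26 on the 48 h arrays. In each sucrose group the array numbered 3 gave the highest of the 3 values for most of these genes, namely for 66.7% at 12 h, 83.3% at 24 h and 68.4% at 48 h, while the shares over all features were 43.8%, 37.6% and 31.9%. The part of the array in the results was not tested beyond the values given without single arrays. Across all probes the SD of log2 ratios ran from 0.64 to 1.26 on the 9 sucrose arrays and from 0.30 to 0.38 on the sorbitol arrays. Between arrays of a group the lowest correlation across probes was 0.279 and the highest 0.790.

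**Figure D1:**
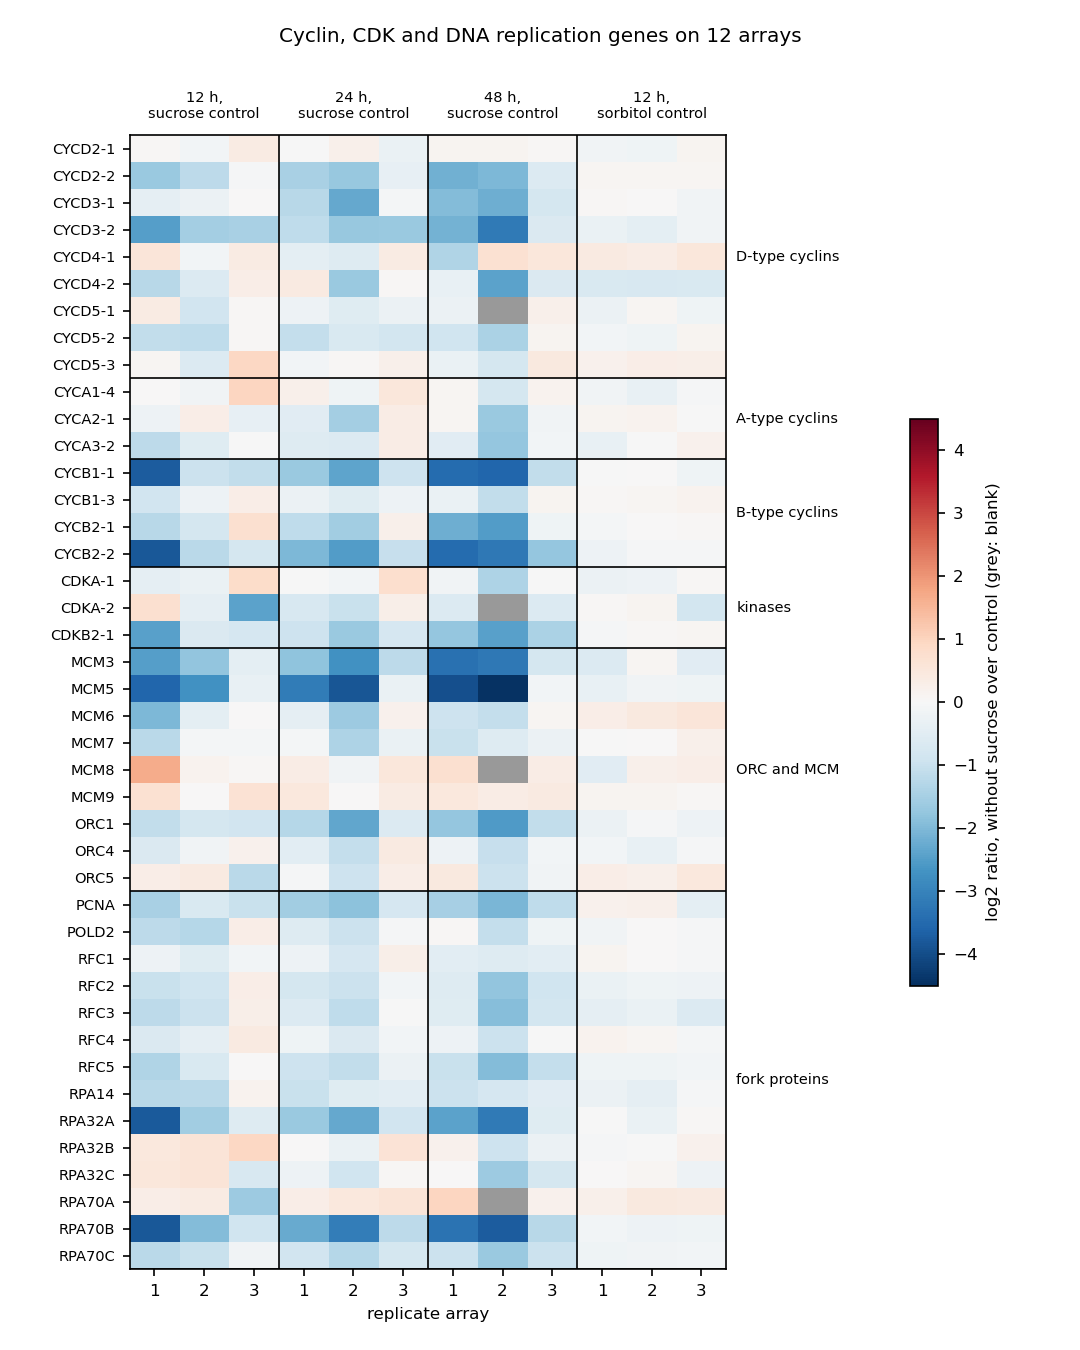
Log2 ratios of the 42 genes (rows, grouped by role) on the 12 arrays (columns, grouped by time and control), with blue below 0, red above 0 and grey for a blank cell. The darkest cells lie in CYCB1-1, CYCB2-2, MCM3, MCM5, RPA32A and RPA70B, the arrays numbered 3 are paler, and on the sorbitol arrays all cells lie between -0.83 and 0.56.

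Each of the 12 arrays was left out in turn, and no call at 12 or 24 h was kept in every fit. At 12 h the count of 8 became 0 without 12 h replicate 1, where 0.811% of all features were lower, 5 without 12 h replicate 2 (2.74%) and 13 without 12 h replicate 3 (3.73%). It was also 5 without 24 h replicate 1 (3.45%) or without any 1 of the 3 sorbitol arrays (2.60% to 2.68%), which enter only through the spread that all groups share. At 24 h the count of 9 became 0 without 24 h replicate 1 (1.34% of all features lower) or 24 h replicate 2 (1.32%), and 5 without sorbitol control replicate 3 (2.45%). At 48 h the count of 18 of 38 became 8 of 42 without 48 h replicate 2 (3.75%), and it lay between 14 and 20 without any other array (8.5% to 14.8%). CYCB2-2, CDKB2-1, CYCD3-2, MCM3, ORC1, PCNA, RPA70B and RPA70C, 8 genes in all, kept their 48 h call whichever array was left out. How many of all features lower at 48 h kept their call in this way was not counted. With only the 3 arrays of a group fitted, the counts at 12, 24 and 48 h were 4, 1 and 6, and 1.85%, 0.737% and 2.64% of all features were lower. With the sorbitol arrays left out they were 1, 2 and 15, beside 1.39%, 1.5% and 7.75%. With limma's array weights 17, 20 and 16 were lower, beside 5.6%, 17.5% and 8.17%. With those weights 1 was higher at 24 h, where 2958 of 19003 features were higher.

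Among the D-type cyclins, 1 of 9 was lower at 12 h, 2 of 9 at 24 h and 3 of 8 at 48 h. Of all features 4.04%, 3.87% and 13.0% were lower at these times. In classes this small, 1 gene makes a large share. CYCD3-2 gave log2 ratios of -2.47, -1.53 and -1.44 on 12 h replicates 1 to 3, -1.16, -1.70 and -1.66 on the 24 h arrays, and -2.14, -3.18 and -0.64 on the 48 h arrays. All 9 were below its 3 sorbitol values of -0.31, -0.44 and -0.15. The share of all features with that pattern was not counted, for this gene or for those below. The sorbitol arrays were of 12 h only, so for 24 and 48 h both time and control differ. CYCD3-2 RNA was 3.52-fold lower at 12 h, 2.84-fold lower at 24 h and 3.96-fold lower at 48 h, with limma adjusted p of 0.00976, 0.0245 and 0.00242. CYCD3 cyclins are known in Arabidopsis to promote division over differentiation. The other gene of that subclass, CYCD3-1, gave -0.40, -0.25 and 0.02 at 12 h, -1.26, -2.30 and -0.10 at 24 h, and -1.96, -2.19 and -0.77 at 48 h. It was near 0 on 12 h replicate 3 and 24 h replicate 3, and the 3 values at 48 h were all below the 3 at 12 h. CYCD3-1 was 2.33-fold lower at 24 h (limma adjusted p 0.0468) and 3.12-fold lower at 48 h (limma adjusted p 0.00525), and its 12 h mean of -0.21 ± 0.21 (SD, n = 3) was not called.

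CYCD2-2 gave -1.66, -1.18 and -0.06 at 12 h, -1.47, -1.69 and -0.36 at 24 h, and -2.16, -2.0 and -0.63 at 48 h. The array numbered 3 was nearest 0 at each time, and all 9 values lay below 3 sorbitol values between 0.09 and 0.10. It was 3.02-fold lower at 48 h (limma adjusted p 0.00646), while the means at 12 h, -0.96 ± 0.82 (SD, n = 3), and at 24 h, -1.18 ± 0.71 (SD, n = 3), missed the threshold with limma adjusted p of 0.106 and 0.0558. Its subclass mate CYCD2-1, the D-type cyclin with the highest mean over the 9 sucrose arrays of those not called, gave 0.07, -0.14 and 0.37 at 12 h, -0.03, 0.22 and -0.28 at 24 h, and 0.12, 0.11 and 0.05 at 48 h. These values straddled 0 at 12 and 24 h, and the 95% interval of its 48 h mean ran from -0.27 to 0.46. CYCD2-2 lay below CYCD2-1 on 9 of 9 sucrose arrays, a pair chosen after its values were seen. The other 5 D-type cyclins, CYCD4-1, CYCD4-2, CYCD5-1, CYCD5-2 and CYCD5-3, had means from -1.14 to 0.26 over the 3 times, and the -1.14 was CYCD4-2 at 48 h, where 48 h replicate 2 gave -2.42 and the other arrays -0.35 and -0.63 (limma adjusted p 0.0714).

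No A-type cyclin was called at any time. These cyclins, of S phase and G2, had means between -0.58 and 0.27 at 12 h. At 24 h they lay between -0.58 and 0.18, and at 48 h between -0.79 and -0.19. CYCA1-4, the highest of them over the 9 arrays, gave 0.00, -0.16 and 0.97 at 12 h, 0.24, -0.21 and 0.49 at 24 h, and 0.08, -0.80 and 0.14 at 48 h. Its values lay on both sides of 0 at each time. The lowest mean was that of CYCA3-2 at 48 h, -0.79 ± 0.85 (SD, n = 3), where the array values were -0.51, -1.74 and -0.11 and the limma adjusted p was 0.0808.

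The B-type cyclins, which act at the entry into mitosis, held some of the deepest falls. At 12 h 2 of 4 were lower, at 24 h 1 of 4 and at 48 h 3 of 4, beside 4.04%, 3.87% and 13.0% of all features. CYCB2-2, reported in rice to pair with the CDKB2 kinase, gave -3.82, -1.20 and -0.78 at 12 h, -2.02, -2.52 and -1.04 at 24 h, and -3.45, -3.22 and -1.74 at 48 h. All 9 values were below its sorbitol values of -0.22, -0.04 and -0.06, with 12 h replicate 1 far below the other 12 h arrays. The RNA was 3.83-fold lower at 12 h, 3.63-fold lower at 24 h and 6.98-fold lower at 48 h, with limma adjusted p of 0.0298, 0.0363 and 0.00195. CYCB1-1 gave -3.73, -0.97 and -1.10 at 12 h, -1.67, -2.39 and -0.93 at 24 h, and -3.45, -3.56 and -1.12 at 48 h. All 9 lay below its sorbitol values, which ran from -0.19 to 0.03. It was 3.82-fold lower at 12 h (limma adjusted p 0.0401) and 6.54-fold lower at 48 h (limma adjusted p 0.00356), and at 24 h the mean of -1.66 ± 0.73 (SD, n = 3) missed the threshold at an adjusted p of 0.0713.

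CYCB2-1 gave -1.24, -0.78 and 0.70 at 12 h, -1.13, -1.56 and 0.24 at 24 h, and -2.21, -2.53 and -0.20 at 48 h. The arrays numbered 3 were above 0 at 12 and 24 h, and only the 48 h mean passed the test, 3.13-fold lower with a limma adjusted p of 0.0205. The fourth B-type cyclin, CYCB1-3, was not called, with -0.87, -0.22 and 0.31 at 12 h, -0.26, -0.53 and -0.24 at 24 h, and -0.30, -1.10 and 0.13 at 48 h. CYCB2-2 and CYCB1-1 each lay below CYCB1-3 on 9 of 9 sucrose arrays, again pairs chosen after their values were seen. The annotation gives CYCB1-3 a synonym with the letters of CYCB1-1, so the names of these genes rest on their gene IDs, LOC4326914 for CYCB1-3 and LOC4327547 for CYCB1-1.

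Among the CDKs, the plant-specific mitotic kinase CDKB2-1 was lower at all 3 times and the A-type kinases were not called. CDKB2-1 gave -2.45, -0.65 and -0.77 at 12 h, -0.93, -1.68 and -0.74 at 24 h, and -1.73, -2.44 and -1.41 at 48 h. Every value was below its sorbitol values of -0.04, 0.05 and 0.10. It was 2.44-fold lower at 12 h, 2.17-fold lower at 24 h and 3.63-fold lower at 48 h, with limma adjusted p of 0.0272, 0.0490 and 0.00173. CDKA-1, the kinase that acts throughout the cycle, gave -0.40, -0.30 and 0.82 at 12 h, -0.01, -0.13 and 0.75 at 24 h, and -0.16, -1.37 and -0.02 at 48 h. Its means were 0.04 ± 0.68, 0.20 ± 0.47 and -0.52 ± 0.74 (SD, n = 3 each) and the 95% interval at 48 h ran from -1.16 to 0.12. CDKB2-1 lay below CDKA-1 on 9 of 9 sucrose arrays and below CDKA-2 on 7 of 8, pairs chosen after their values were seen. CDKA-2 had the widest spread of the CDKs at 12 h, from -2.41 to 0.73, and was blank on 48 h replicate 2.

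**Figure D2:**
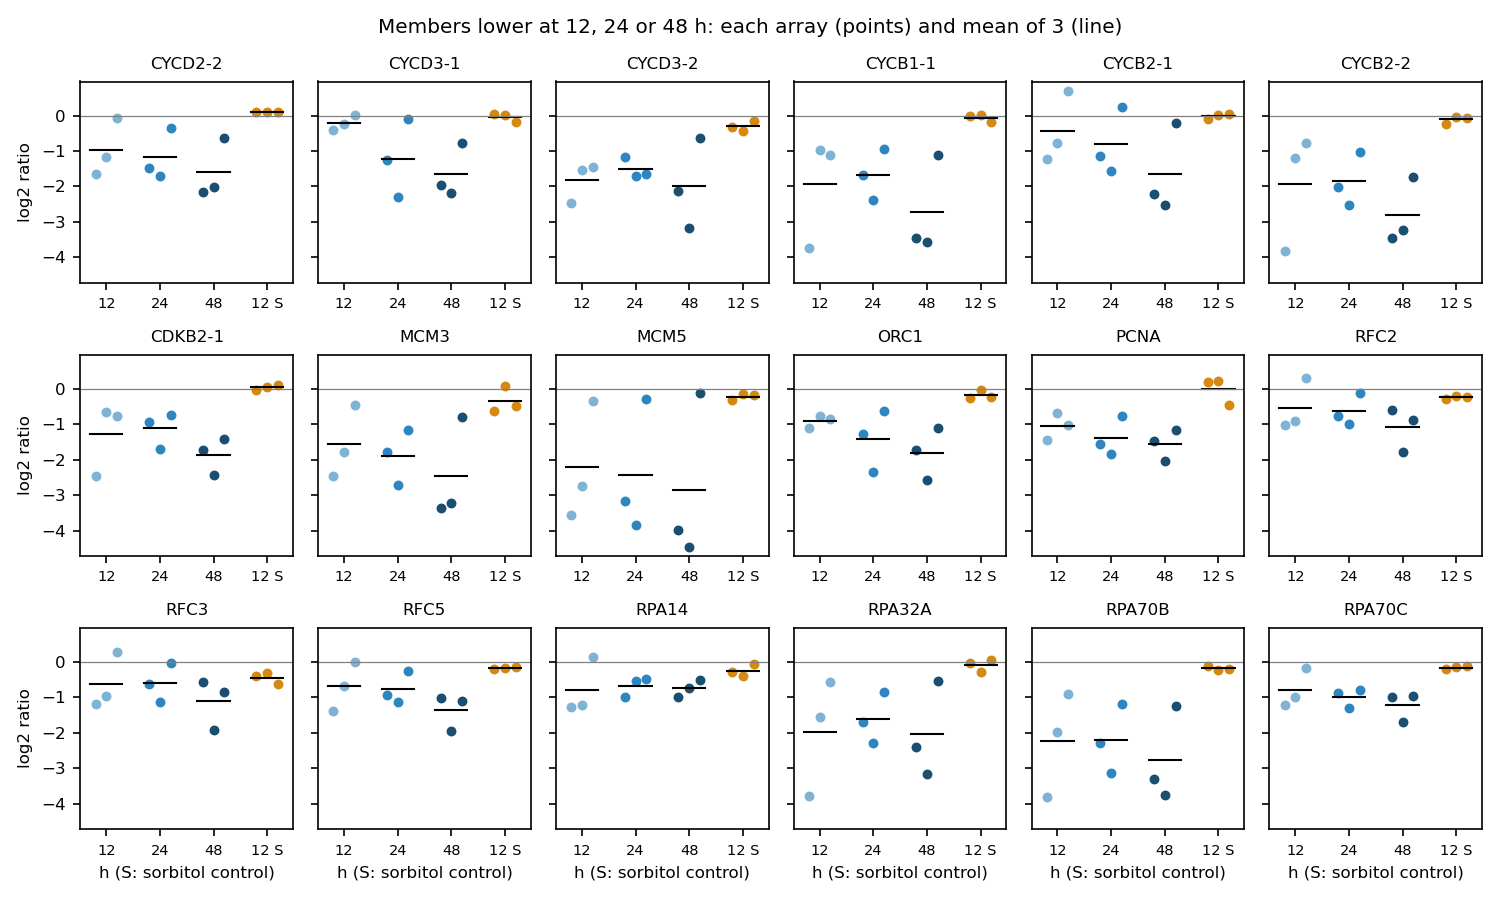
Log2 ratio of starved over control cells (y axis) for the 18 genes called lower at 12, 24 or 48 h, with a point for each array in replicate order from left to right and a line at the mean of 3, for the sucrose groups (blue) and the 12 h sorbitol control (S, orange). In most panels the blue points spread over more than 1 log2 unit and the orange points sit close together near 0.

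The ORC and MCM genes act at replication origins apart from MCM8 and MCM9. Of these genes 0 of 9 were lower at 12 h, 2 of 9 at 24 h and 3 of 8 at 48 h, and none was higher. The shares of all features that were lower were 4.04%, 3.87% and 13.0%. At 12 h 4 of the 9 had an unadjusted p under 0.05, 1 of them, MCM9, with a mean above 0, beside 24.8% of all features. ORC1, the largest subunit of the origin recognition complex, gave -1.11, -0.78 and -0.87 at 12 h, -1.28, -2.34 and -0.62 at 24 h, and -1.73, -2.56 and -1.11 at 48 h. All 9 lay below the sorbitol values of -0.26, -0.04 and -0.24. It was 2.66-fold lower at 24 h (limma adjusted p 0.0134) and 3.49-fold lower at 48 h (limma adjusted p 0.00149), and its 12 h mean of -0.92 ± 0.17 (SD, n = 3) had a limma adjusted p of 0.0790. ORC1 was the only one of these genes with more than 1 probe, and both of its probes had means below 0 at all 3 times. ORC4 and ORC5, other subunits of the complex, had means from -0.46 to -0.17 and were not called. ORC1 lay below ORC4 on 9 of 9 sucrose arrays, a pair chosen after its values were seen.

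Of the MCM helicase subunits, MCM3 and MCM5 were lower and MCM6 and MCM7 were not called. MCM3 gave -2.46, -1.78 and -0.45 at 12 h, -1.79, -2.72 and -1.17 at 24 h, and -3.36, -3.21 and -0.80 at 48 h. The array numbered 3 was nearest 0 each time, and the sorbitol values of -0.63, 0.07 and -0.50 reached into the range of 12 h replicate 3. MCM3 was 3.72-fold lower at 24 h (limma adjusted p 0.0301) and 5.49-fold lower at 48 h (limma adjusted p 0.00344), with 0.0603 at 12 h. MCM5 gave -3.57, -2.73 and -0.33 at 12 h, -3.15, -3.85 and -0.28 at 24 h, and -3.97, -4.45 and -0.12 at 48 h. On replicates 1 and 2 these were among the lowest values of all 42 genes, while replicate 3 was within the range of its sorbitol values, -0.33 to -0.15, or near it. MCM5 had the lowest mean of these genes at 48 h, -2.85 ± 2.38 (SD, n = 3), 7.19-fold lower, but a limma adjusted p of 0.0238, and it was not called at 12 h (0.114) or 24 h (0.0848).

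MCM6 had means of -0.81, -0.61 and -0.63 and MCM7 had means of -0.47, -0.59 and -0.61 at 12, 24 and 48 h. MCM7 was below 0 on all 9 sucrose arrays without being called, at -1.22, -0.09 and -0.10 on the 12 h arrays. MCM8 and MCM9, relatives that in animals and Arabidopsis are known for DNA repair by recombination and are not part of the helicase loaded at origins, stood at the other end. MCM9 gave 0.68, 0.03 and 0.65 at 12 h, 0.49, 0.03 and 0.36 at 24 h, and 0.46, 0.33 and 0.40 at 48 h. It was the only 1 of the 42 genes above 0 on all 9 sucrose arrays, a pattern held by 9.72% of all features, and its means of 0.45, 0.29 and 0.40 had limma adjusted p of 0.127, 0.296 and 0.115. With limma's array weights it was higher at 24 h, at 0.42 with an adjusted p of 0.0414, where 2958 of 19003 features were higher. MCM8, the highest mean among the ORC and MCM genes, gave 1.68, 0.17 and 0.06 at 12 h, 0.34, -0.17 and 0.50 at 24 h, and 0.72 and 0.32 on 48 h replicates 1 and 3. That mean leaned on 12 h replicate 1, and MCM8 was not called at 12 or 24 h.

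Of the genes grouped as fork proteins, 4 of 14 were lower at 12 h, 3 of 14 at 24 h and 8 of 13 at 48 h. Beside these stand 4.04%, 3.87% and 13.0% of all features. PCNA, the sliding clamp, gave -1.46, -0.67 and -1.01 at 12 h, -1.56, -1.84 and -0.75 at 24 h, and -1.48, -2.04 and -1.15 at 48 h. Its arrays differed less than those of most genes called, and all 9 values lay below the sorbitol values of 0.19, 0.23 and -0.45. PCNA was 2.06-fold lower at 12 h, 2.61-fold lower at 24 h and 2.94-fold lower at 48 h, with limma adjusted p of 0.0238, 0.00575 and 0.00122. POLD2, a subunit of polymerase delta that works on PCNA, was not called, with means of -0.73, -0.53 and -0.40.

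The clamp loader has a large subunit, RFC1, and small subunits RFC2 to RFC5. At 48 h 3 of the small ones were lower, beside 13.0% of all features. None of the 3 was called at 12 or 24 h, and none in the tests of the differences between times. RFC5 gave -1.37, -0.69 and 0.00 at 12 h, -0.94, -1.12 and -0.25 at 24 h, and -1.01, -1.94 and -1.09 at 48 h. The 48 h mean was 2.54-fold lower with a limma adjusted p of 0.00387. RFC2 gave -1.01, -0.91 and 0.31 at 12 h, -0.78, -0.98 and -0.12 at 24 h, and -0.59, -1.78 and -0.89 at 48 h, and was 2.12-fold lower at 48 h (limma adjusted p 0.0155). RFC3 gave -1.20, -0.96 and 0.27 at 12 h, -0.63, -1.13 and -0.03 at 24 h, and -0.56, -1.92 and -0.83 at 48 h, and was 2.15-fold lower at 48 h (limma adjusted p 0.0229). All 3 genes were lowest on 48 h replicate 2. RFC1 at -0.30, -0.24 and -0.50 and RFC4 at -0.21, -0.33 and -0.41 were not called. RFC5 lay below RFC4 on 9 of 9 sucrose arrays, a pair chosen after its values were seen.

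Replication protein A is a trimer of a large subunit of the RPA70 type, a middle subunit of the RPA32 type and the small subunit RPA14. Rice has several genes of the larger types, and in rice RPA70A is known to pair with RPA32B, RPA70B with RPA32A and RPA70C with RPA32C. RPA70B gave -3.82, -1.96 and -0.90 at 12 h, -2.28, -3.13 and -1.18 at 24 h, and -3.31, -3.75 and -1.25 at 48 h. All 9 were below the sorbitol values of -0.12, -0.22 and -0.20. RPA70B was 4.68-fold lower at 12 h, 4.58-fold lower at 24 h and 6.82-fold lower at 48 h, with limma adjusted p of 0.0231, 0.0260 and 0.00328. Its partner RPA32A gave -3.79, -1.56 and -0.57 at 12 h, -1.69, -2.29 and -0.85 at 24 h, and -2.40, -3.17 and -0.55 at 48 h. All 9 values lay below the sorbitol values, which ran from -0.29 to 0.04. RPA32A was 3.93-fold lower at 12 h (limma adjusted p 0.0404) and 4.11-fold lower at 48 h (limma adjusted p 0.0166), with 0.0847 at 24 h.

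The genes of the RPA70A and RPA32B pair were not called. RPA70A gave 0.29, 0.35 and -1.63 at 12 h, 0.31, 0.47 and 0.59 at 24 h, and 0.97 and 0.19 on 48 h replicates 1 and 3. All but 12 h replicate 3 were above 0. RPA32B had means of 0.66 ± 0.24, 0.11 ± 0.46 and -0.33 ± 0.55 (SD, n = 3 each), with a limma adjusted p of 0.0896 at 12 h. Of the fits without 1 array, RPA32B was called higher at 12 h in 1, that without 48 h replicate 2. In that fit 1148 of 18270 features were higher. RPA32A lay below RPA32B on 9 of 9 sucrose arrays and below RPA32C on 7 of 9, and RPA70B lay below RPA70A on 7 of 8, and these pairs too were chosen after their values were seen.

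RPA70C gave -1.22, -0.99 and -0.17 at 12 h, -0.87, -1.28 and -0.80 at 24 h, and -0.98, -1.69 and -0.96 at 48 h. Only 12 h replicate 3 came near its sorbitol values, which ran from -0.19 to -0.12. RPA70C was 1.73-fold lower at 12 h, 1.98-fold lower at 24 h and 2.32-fold lower at 48 h, with limma adjusted p of 0.0425, 0.0168 and 0.00248. RPA32C, named as its partner, was not called, with means of 0.13, -0.35 and -0.80. RPA14, the small subunit, gave -1.26, -1.23 and 0.14 at 12 h, -1.0, -0.53 and -0.48 at 24 h, and -0.98, -0.74 and -0.51 at 48 h. The 48 h values lay below its sorbitol values of -0.27, -0.41 and -0.06, and RPA14 was 1.67-fold lower at 48 h with a limma adjusted p of 0.0468, the nearest to the threshold of the 18 calls at that time.

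**Figure D3:**
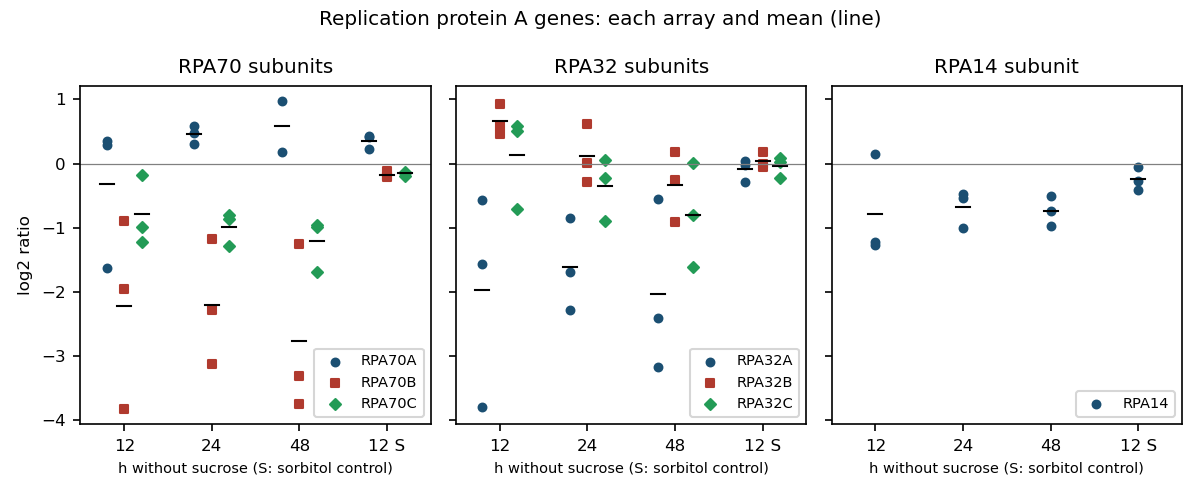
Log2 ratio (y axis) of the 7 replication protein A genes on each array against time without sucrose (x axis, with S for the sorbitol control), with points for arrays and lines for means. RPA70B and RPA32A reach -3.82 and -3.79 on the sucrose arrays while RPA70A and RPA32B have points on both sides of 0.

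The pattern over genes was alike at the 3 times. Over the 42 genes the 12 and 24 h means had a Pearson correlation of 0.91, where all features with both values gave 0.81. Over 38 genes the correlation was 0.90 between 12 and 48 h and 0.94 between 24 and 48 h, where all features gave 0.77 and 0.89. These are correlations across genes, which are not independent replicates. Of the 42 genes, 13 were below 0 on all 9 sucrose arrays, and 8.60% of all features with 9 values were. They were CYCB1-1, CYCB2-2, CYCD2-2, CYCD3-2, CDKB2-1, MCM3, MCM5, MCM7, ORC1, PCNA, RPA32A, RPA70B and RPA70C.

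**Figure D4:**
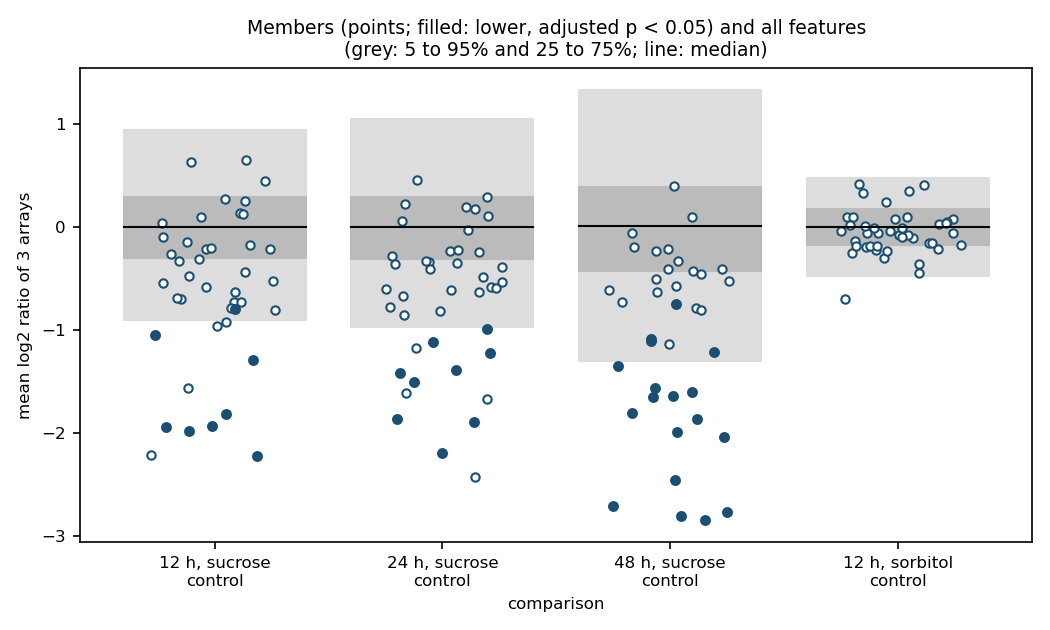
Mean log2 ratio of 3 arrays (y axis) of each gene described (points, filled where called lower) in the 4 comparisons (x axis), over the 5 to 95% and 25 to 75% ranges of all features (light and dark grey) and their median (line). The filled points number 8, 9, 18 and 0 from left to right.

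Whether the falls grew with time was tested as differences between groups. No gene described was called in 48 minus 12 h (0 of 38), where 0.00594% of all features were lower, nor in 48 minus 24 h (0 of 38) or 24 minus 12 h (0 of 42), where 0.0% were lower in both. At an unadjusted p under 0.05, 2 of 38 genes (5.26%, beside 9.96% of all features) differed in 48 minus 12 h. They were CYCD3-1 with -1.43 (95% interval -2.49 to -0.37, limma adjusted p 0.376) and RPA32B with -0.99 (95% interval -1.69 to -0.29, limma adjusted p 0.365). In this fit, which had no replicate block, none did in 48 minus 24 h or 24 minus 12 h, beside 2.88% and 3.82% of all features. The median difference over the 38 genes was -0.47 for 48 minus 12 h, where all features gave -0.01. In 3 of 38 genes the 48 h arrays lay wholly below the 12 h arrays, a share of 7.89% beside 6.25% of all features, and in 0 of 38 they lay wholly above, beside 4.81%. Between 48 and 24 h and between 24 and 12 h, 0 genes described had groups without overlap. Of all features, 2.33% lay wholly below and 2.53% wholly above at 48 against 24 h, and 3.55% below and 2.3% above at 24 against 12 h. Same-numbered 24 and 48 h arrays deviated together from their group means. With the number as a block and only those arrays fitted, 0 of 38 genes were called for 48 minus 24 h. Of all features in that fit, 0.00592% were lower and 0 were higher. The smallest limma adjusted p among the 38 genes was 0.766, that of CYCB2-2 with a difference of -0.94. At an unadjusted p under 0.05, 6 of 38 were lower at 48 h in that block fit. They were CYCB2-2, CYCB1-1, CYCB2-1, CDKB2-1, CYCD4-2 and CDKA-1. The share of all features at that unadjusted level was not counted for the block fit.

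Against cells in sorbitol, for which no sucrose content was recorded here, the genes described lay close to 0 after 12 h without sucrose. With the spread of all 12 arrays, 0 of 42 were called, beside 0.0% of all features called lower and 0.0515% higher, and 0 of 42 had an unadjusted p under 0.05, where 1262 of 19435 features did. Their means ran from -0.69 for CYCD4-2 to 0.42 for MCM6, with a median of -0.06. All 3 arrays were below 0 for 13 of 42 genes (31.0% of all features) and above 0 for 8 (31.7%). That shared spread is set mostly by the sucrose arrays, and the widest 95% interval of a gene described here was 3.57 log2 units. With only the 3 sorbitol arrays fitted, 5 of 42 were lower and 5 higher, beside 17.6% of all features lower and 18.3% higher. The 5 lower were CYCD4-2 at -0.69 (limma adjusted p 0.000141), RFC3 at -0.44, MCM3 at -0.35, CYCD3-2 at -0.30 and RFC2 at -0.23. The 5 higher were MCM6 at 0.42, CYCD4-1 at 0.41, RPA70A at 0.36, ORC5 at 0.34 and CYCD5-3 at 0.25.

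CYCD4-2 was the most even of these, with -0.68, -0.73 and -0.68 on the 3 sorbitol arrays and -1.26, -0.60 and 0.30 on the 12 h sucrose arrays. Its values under the sucrose control spanned those under sorbitol. The 6 genes lower at all 3 times were each between -0.30 and 0.04 under the sorbitol control.

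The difference between the comparisons at 12 h was tested directly, as the sucrose-control value minus the sorbitol-control value. No gene described was called (0 of 42), beside 0.455% of all features lower and 1.0% higher. At an unadjusted p under 0.05 there were 8 of 42 (19.0%), beside 14.3% of all features. The smallest unadjusted p-values were those of CYCD3-2, with a difference of -1.51 (95% interval -2.62 to -0.41, limma adjusted p 0.189), CDKB2-1, with -1.33 (limma adjusted p 0.192), and PCNA, with -1.04 (limma adjusted p 0.197). In 13 of 42 genes the 3 sucrose-control values lay wholly below the 3 sorbitol-control values, a share of 31.0%, beside 14.4% of all features. In 1 of 42 they lay wholly above, beside 16.2% of all features. In this fit, the 12 h fall against sucrose was thus not shown to differ from the sorbitol-control value for any gene at this threshold. The outcome depended on the fit. With only the arrays of the groups compared, CYCD3-2 alone was lower (limma adjusted p 0.0319), beside 1.69% of all features. With limma's array weights 11 of 42 were lower, beside 4.15%.

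**Figure D5:**
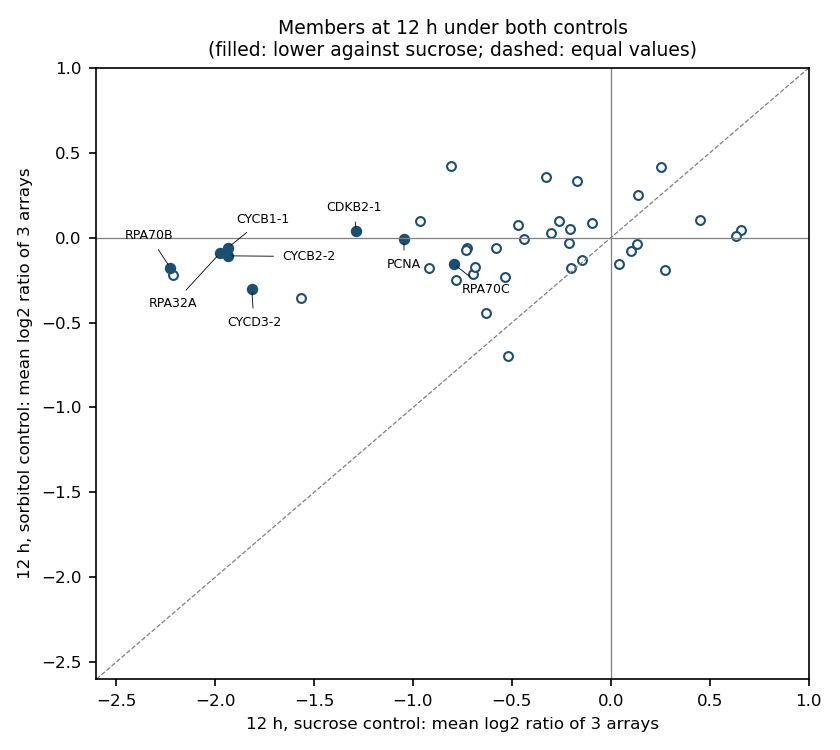
Mean log2 ratio of 3 arrays at 12 h against the sucrose control (x axis) and the sorbitol control (y axis) for the 42 genes, with filled and named points for the 8 lower against sucrose and a dashed line of equal values. The 8 named genes lie between -2.23 and -0.79 on the x axis and between -0.30 and 0.04 on the y axis.

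Related genes outside the cyclins A, B and D and the replication genes were taken from lists of names. There were 17 other cyclins and CDKs on the array, several of them in classes known mainly for transcription or for activating other CDKs. Of these 17, 0 were called at 12 or 24 h, and their medians were 0.11 and -0.05. At 48 h, 2 of 16 were lower, CDKF-4 at -0.63 and CYCT1-1 at -1.16, beside 13.0% of all features. Higher at 48 h was 1 of 16, CDKG-1 at 0.73, beside 12.4% of all features. Of 5 genes of cell cycle control, the CDK inhibitor KRP5 was lower at all 3 times, at -1.93, -2.05 and -1.46 with limma adjusted p of 0.00298, 0.00193 and 0.0056. The CDK inhibitor KRP4 was higher at 12 h, at 0.79 with a limma adjusted p of 0.0394, and was at 0.30 and 0.25 at 24 and 48 h without passing the test. KRP1, KRP6 and the retinoblastoma-related gene RBR2 were not called. Of 6 seed storage and 3 leaf genes, none of those tested was called at any time. Ratios give no level, so whether the cells lack the RNA of such tissues was not tested.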

How the data were processed

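The authors deposited 1 table of processed values with a column for each of 12 arrays and 21495 probes, and all columns were used. No source states the scale of these deposited values, and natural log was chosen from the values. On 12 h replicate 1, 316 cells turned back into ratios of 1 decimal place (within 1e-05) if read so, and 79 if read as log2. On some arrays this check did not separate the scales. Read as natural log, log2 or log10, sorbitol control replicate 1 gave 5, 2 and 7 such cells. Sorbitol control replicate 2 gave 4, 2 and 5, and replicate 3 gave 6, 7 and 3. On 12 h replicate 3 they were 6, 7 and 5, and on 24 h replicate 3 they were 5, 4 and 5. For these arrays natural log was assumed from the others, and their log2 values rest on that. Which channel was divided by which, the software, the centring and the background correction were not given in the sources used here. The direction, starved cells in Cy5 over control cells in Cy3, follows the dyes named in the labels. The dyes were never swapped, so a dye effect stays in every ratio. Column medians lay between -0.03 and 0.11 on the log2 scale. The number of arrays limits the precision.

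The ratios were turned to log2. Probes were named through the annotation table given for the array, and gene names came from a RefSeq gene table (assembly ASM3414082v1). Probes of a gene were averaged, and a test needed a value on each array of its groups. Of all cells 2.41% were blank, and nothing was filled in.

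Python 3.11.15, R 4.3.3 and limma 3.58.1 (lmFit, eBayes, two-sided) were used, with 1 coefficient per group over all 12 arrays and Benjamini-Hochberg adjustment over all features. The script was tested on simulated data. The genes and lists were chosen with earlier results of these data known. Values on all 3 arrays were printed for each gene called in a sucrose comparison or in 48 minus 12 h and for the uncalled gene with the highest mean in each role. Gene pairs, and genes named for other values, were chosen after their values were seen.

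Same-numbered arrays were checked for pairing by the correlation of their deviations from group means. It was 0.443 to 0.566 between 24 and 48 h, -0.201 to 0.446 for 12 and 24 h and -0.118 to 0.461 for 12 and 48 h. The highest same-numbered values with 12 h were those of the arrays numbered 3. Replicate 1 at 12 h deviated instead with replicate 2 at 24 h (0.398) and 48 h (0.373). Replicate 2 at 12 h did so with replicate 1 at 24 h (0.524) and 48 h (0.334). The numbers were taken as pairs only for 48 minus 24 h, and no other pairing of the 12 h arrays was fitted. Alternatives were other scalings, other samples in the fit, array weights, blank cells, probes, a replicate block and leaving out arrays.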

Additional observations from a re-analysis of the deposited data

Results flagged for a closer look

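CYCD2-2 was below 0 on all 3 arrays at 12 h against sucrose, at -1.66, -1.18 and -0.06, and above 0 on all 3 against sorbitol, at 0.09, 0.09 and 0.10. The sucrose-control mean minus the sorbitol-control mean was -1.06. In limma the difference had an adjusted p of 0.35, so it did not pass the threshold. On 12 h replicate 3 the value was close to 0.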

How the results depend on the processing

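The counts of genes called depended on the fit. In brackets stand the shares of all features called in the same direction or directions. At 12 h the 8 lower (4.04%) became 13 (5.21%) after quantile normalization, 4 (1.85%) with only the group's own arrays, 1 (1.39%) with the sorbitol arrays left out, 17 (5.6%) with array weights and 14 (4.40%) without the arrays numbered 3. At 24 h the 9 (3.87%) became 15 (6.13%) with arrays scaled to a common spread, 15 (5.73%) after quantile normalization, 1 (0.737%) with its own arrays, 2 (1.5%) with the sorbitol arrays left out and 16 (8.39%) without the arrays numbered 3. With array weights it became 21 (33.1%), of which 20 were lower and MCM9 was higher. At 48 h the 18 (13.0%) became 6 (2.64%) with its own arrays. Against sorbitol the 0 became, in both directions, 2 (15.1%) with scaling, 3 (20.3%) after quantile normalization, 10 (35.9%) with its own arrays and 12 (40.9%) with array weights, each a smaller share of the 42 genes than of all features. For sucrose minus sorbitol control at 12 h the 0 became 2 (3.14%), 4 (5.27%), 1 (1.69%) and 11 (4.15%) lower under the same 4 settings, and 1 (0.0657%) without the arrays numbered 3. Leaving out 1 array of the groups compared gave 0 to 13 calls at 12 h, 0 to 11 at 24 h and 8 to 19 at 48 h, and arrays of other groups 5 to 10, 5 to 13 and 17 to 20. It gave 0 calls against sorbitol and in all differences. With the replicate block the counts were 8, 10 and 18 at 12, 24 and 48 h and 0 otherwise, and it changed no call of a difference. Of the values of called genes under alternatives other than leaving out 1 array, 301 stayed past the threshold and 51 did not. With 1 array left out 341 stayed past it and 79 did not. No called value changed direction under any alternative run. Each group has its own mean in the fit, so leaving out arrays of other groups cannot change that mean. For such fits the direction was fixed in advance. The cause of the changes in counts and calls was not tested. Signal over background was not used here, so dim probes could not be told from others.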
